A study of Mus musculus with 21 samples.

Results

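The 7 genes described here carry iron into, through and out of the intestinal wall or store it there, and were chosen by symbol. They are Cybrd1, Tfrc, Slc40a1, Heph, Fth1, Ftl1 and Hmox1, and all 7 were found among the 21441 genes of each of 6 deposited expression tables. RNA was sequenced from mouse colon and ileum in a series on what the distal gut adds to calcium balance. Its groups differ in VDR, the vitamin D receptor, through which the hormone 1,25D3 acts on transcription. The treated and the uninjected groups carried a CDX2-VDR transgene, which gives human VDR in the distal intestine of mice without VDR of their own. Treated mice, labelled male and 9 weeks old, had received 1,25D3 in 3 injections of 1 ng per g of body weight, 48, 24 and 6 h before the end. Uninjected mice were 9 or 10 weeks old, and 5 of the 7 samples were labelled female. The KO group was Villin-CreERT2 VDR f/f, in which a Cre recombinase that tamoxifen activates and that the villin promoter drives removes VDR from intestinal epithelium. KO mice were labelled male, 1 of 4 samples in each tissue at 9 weeks and the others at 11. All mice were on a C57BL6J background, and the labels name no animals, so p-values measure the spread between samples. Colon gave 3 treated, 4 uninjected and 4 KO libraries, and ileum gave 3 treated, 3 uninjected and 4 KO libraries. Treated and KO mice differ in the transgene, in how VDR was lost, in age and in injection, and these cannot be told apart.

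Dietary iron reaches the enterocyte as ferrous iron after reduction at the brush border, for which Cybrd1 (duodenal cytochrome b) is a ferric reductase. Iron leaves the cell through ferroportin, the product of Slc40a1, and hephaestin, the product of Heph, oxidises it at the basolateral side for loading onto transferrin. Cells take transferrin up through the receptor Tfrc, hold spare iron in ferritin shells built of the heavy chain Fth1 and the light chain Ftl1, and free iron from haem with haem oxygenase, the product of Hmox1. Iron itself sets the amount of ferritin mainly through translation and that of Tfrc mainly through mRNA stability, by way of hairpins in their untranslated regions that iron regulatory proteins bind. Absorption is known mostly from the duodenum, which was not sampled.

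The hairpins of the ferritin chains and of Tfrc are shown because through these sequences storage and uptake read iron. Whether other genes of the list, the exporter Slc40a1 among them, carry such a hairpin is not given here. They were found in the annotated mouse transcripts (mm9) as a C, 5 bases, the loop CAGTGN and 5 bases that pair with the first 5, G with T allowed, on the transcript strand. Each is printed over 28 bases with the loop in capitals.
Fth1: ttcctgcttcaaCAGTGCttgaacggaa
Ftl1: gtcttgcttcaaCAGTGTttgaacggaa
Tfrc 1: aattatcggaagCAGTGCcttccataat
Tfrc 2: cattatcgggagCAGTGTcttccataat
Tfrc 3: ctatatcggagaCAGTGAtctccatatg
Tfrc 4: aattatcgggaaCAGTGTttcccataat
The Fth1 hairpin lies in exon 1, in the 5′ untranslated region, at chr19:10057222-10057249 on the plus strand, and that of Ftl1 in exon 1, in the 5′ untranslated region, at chr7:52715150-52715177 on the minus strand. The 4 that this pattern found in Tfrc lie in the 3′ untranslated region in exon 19, on the plus strand, from chr16:32631305-32631332 through chr16:32631684-32631711 and chr16:32631749-32631776 to chr16:32631796-32631823. Hairpins that depart from the pattern would be missed, so 4 is a count of matches and not of all such elements in Tfrc. The same letters occur in at least 1 transcript of 264 of the 19696 table genes with an annotated transcript, or 1.34%, so a match alone describes a sequence and no more. A level of mRNA does not show how much ferritin was translated.

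All 10 epithelial markers found, such as Vil1 and Epcam, were above 0 in every library, which does not give the share of epithelial cells. Muscle and stroma markers summed to between 697 and 6299 FPKM (fragments per kilobase of transcript per M fragments), so other layers of the gut wall were present too. Colon markers such as Car1 summed to at least 2928 FPKM in colon libraries and at most to 728 in ileum libraries, and ileum markers such as Fabp6 to at least 15510 FPKM in ileum and at most 4767 in colon. Pancreatic acinar transcripts summed to 24680 FPKM in Colon treated 4, to 145400 FPKM in Colon uninjected 3 and to 43050 FPKM in Colon KO 2, and stayed at or below 1171 in the other libraries. Reads recovered from the FPKM values came to 7.91 to 31.7 M per library in colon and 11.3 to 36.1 M in ileum. Levels of Vdr, from 12.3 to 39.9 FPKM over all libraries, do not check the labels, since they do not separate the deleted exons from the rest and reads of human VDR can fall on the mouse gene. Y-linked Ddx3y was at 12.1 FPKM in Colon uninjected 3, which is labelled female. It was above 2.2 FPKM in 4 uninjected libraries and at most 0.21 in the other 3. Xist, the X-inactivation transcript of female cells, was at 5.91 FPKM in Colon uninjected 2 and at most 0.26 in the other 20 libraries. Colon uninjected 1, labelled female, thus held little of either, with 0.0979 FPKM of Ddx3y and 0.0889 of Xist, and labelled sex and these values disagree in part.

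Storage genes dominated the list. Over the colon libraries, put on 1 scale, Fth1 (chr19:10057193-10059582) ranged from 2433 to 5747 FPKM with a median of 3368, and Ftl1 (chr7:52713314-52715254) from 1477 to 5079 with a median of 2760. The exporter Slc40a1 (chr1:45964915-45982439) followed with a median of 56.1 FPKM, then Tfrc (chr16:32609006-32632880) with 44.2 and Heph (chrX:93650698-93769824) with 32.0. Their ranges overlapped, from 27.8 to 115 FPKM for Slc40a1, from 11.9 to 75.0 for Tfrc and from 13.8 to 47.4 for Heph. Hmox1 (chr8:77617490-77624495) had a median of 5.35 FPKM, and the reductase Cybrd1 (chr2:70955980-70980983) was near the bottom, at 0.416 to 0.830 FPKM.

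In the ileum libraries the ferritin chains again came first, with medians of 1997 FPKM for Fth1 and 1613 for Ftl1. Heph was next with a median of 55.4 FPKM, above Tfrc with 24.0 and Slc40a1 with 15.9. Hmox1 had a median of 2.75 FPKM and Cybrd1 one of 0.986. Fth1 stood above Ftl1 in 11 of 11 colon libraries and in 8 of 10 ileum libraries. The exporter and its ferroxidase changed places between the tissues. Slc40a1 was above Heph in 11 of 11 colon libraries and in 0 of 10 ileum libraries, a comparison made within each library and therefore free of the scaling between tables. Cybrd1, the duodenal reductase, had a mean above the minimum of 1 FPKM set for the test only in the ileum tables that hold treated mice.

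**Figure D1:**
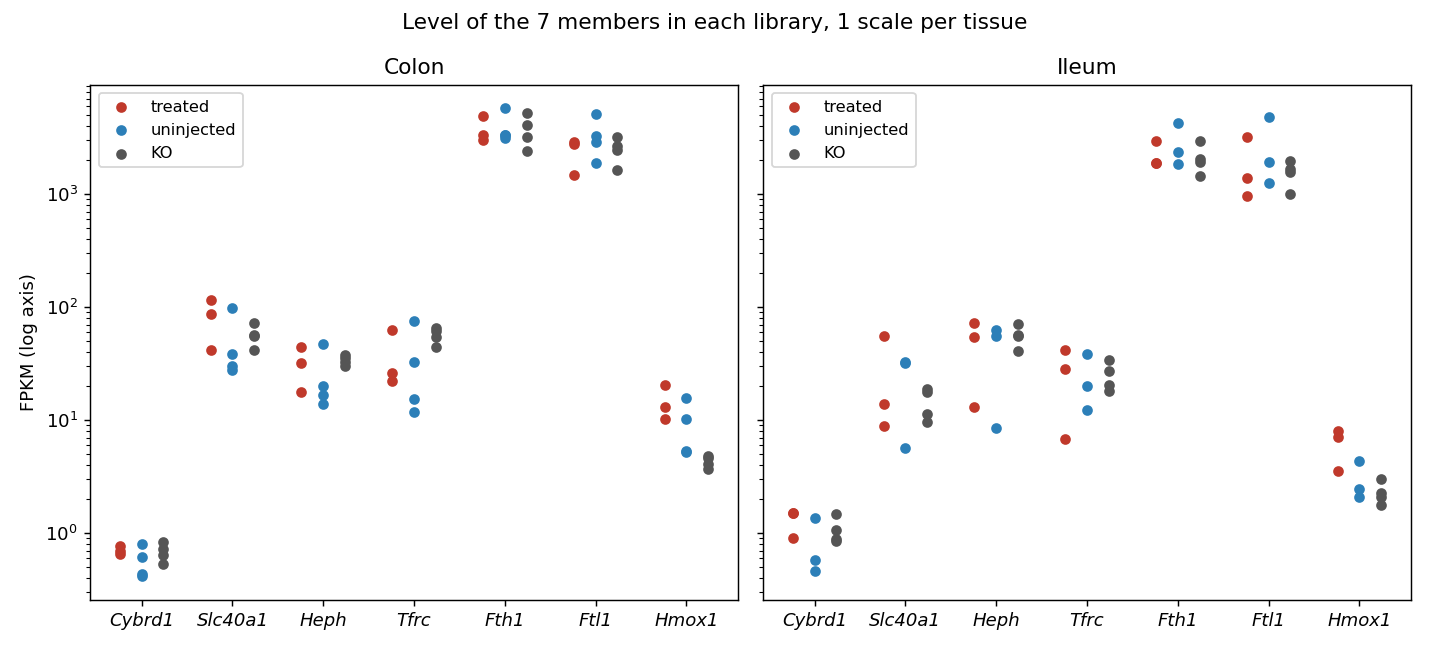
FPKM (log axis) of the 7 genes in each of 11 colon and 10 ileum libraries, coloured by group and put on 1 scale per tissue; each point is 1 library. Fth1 and Ftl1 lie between 954 and 5747 FPKM, Cybrd1 between 0.416 and 1.51, and Slc40a1 is above Heph in colon and below it in ileum.

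Hmox1 was the 1 gene of the list that passed the test in any of 6 comparisons. In the table of treated and KO colon treated libraries held 14.0, 10.9 and 21.5 FPKM of it, against 4.90, 4.31, 5.20 and 3.97 FPKM in KO libraries. Every treated library stood above every KO library, with Colon treated 4 the highest. Hmox1 averaged 15.5 ± 5.45 FPKM in treated colon and 4.60 ± 0.558 in KO colon (SD, n = 3 and n = 4), and rose 3.04-fold (log2 difference 1.60, SE 0.238, adjusted p = 0.0438, limma on log2(FPKM + 0.5)). The recovered reads behind these levels were 613, 166 and 787 in treated libraries and 171, 164, 168 and 183 in KO libraries. In that comparison 1 of 6 genes tested was called, beside 0.296% of all 12505 genes tested, and 520 genes (4.16%) were higher in treated colon without overlap. The adjusted p lay just under the threshold. It was 0.174 without Colon KO 2, which holds acinar transcripts, and 0.192 without Colon treated 4 as well, the other acinar library of this table, where the log2 difference was 1.32. Leaving out single libraries gave adjusted p-values from 0.0265 to 0.174 in 7 fits. Over 17 alternatives, these 7 fits included, the difference stayed above 0 in 17 while 12 put the adjusted p at or over 0.05. The fit without Colon KO 2 enters there both as a single library left out and as an acinar library left out.

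In treated and KO ileum, treated libraries held 7.51, 3.70 and 8.33 FPKM of Hmox1, against 2.35, 1.85, 3.20 and 2.20 FPKM in KO libraries. The groups did not overlap here either, and the means were 6.51 ± 2.47 FPKM in treated ileum and 2.40 ± 0.575 in KO ileum (SD, n = 3 and n = 4). The log2 difference was 1.22 (SE 0.327) at an unadjusted p of 0.00452 and an adjusted p of 0.752 (limma), so it did not pass the test. Unadjusted p-values under 0.05 were found for 1 of 7 genes of the list and for 3.65% of all genes tested, adjusted ones for 0 of 7 and 0.0835%, and 3.03% of genes were higher in treated ileum without overlap. The colon and ileum effects on Hmox1 differed by −0.38 (log2, ileum minus colon, SE 0.407, adjusted p = 0.977, limma), which does not show a difference between tissues. Of that difference of effects, 0 of 6 genes of the list and 0.00803% of all genes were called.

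Without injection the picture was mixed. Against KO colon, Hmox1 had 5.19, 5.35, 10.3 and 15.6 FPKM in the uninjected libraries and 4.62, 4.06, 4.85 and 3.74 FPKM in the KO libraries. Here too the groups did not overlap, with 5.19 FPKM the lowest uninjected and 4.85 FPKM the highest KO value. How many of all genes did so in this comparison was not counted. The uninjected libraries fell into a low pair, close to KO, and a high pair, Colon uninjected 3 and 4. The log2 difference was 0.86 (SE 0.339, unadjusted p = 0.0305, adjusted p = 0.721, limma). The high pair also had Ddx3y at 12.1 and 15.1 FPKM, against 0.0979 and 0.209 in the low pair, and GC slopes of −0.29 and −0.32 (log2 per 10% GC), against 0.80 and 0.39. Whether either of these has a part in the split was not tested. Unadjusted p-values under 0.05 were found for 1 of 6 genes of the list, beside 4.60% of all genes, and adjusted ones for 0 of 6 and 0.0804%.

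Against uninjected colon, the treated libraries had 13.3, 10.3 and 20.6 FPKM of Hmox1, and the uninjected libraries 5.24, 5.40, 10.3 and 15.7 FPKM. The groups overlapped, and the log2 difference of 0.74 (SE 0.437) had an adjusted p of 1.00 (limma). Here 0 of 6 genes of the list passed at an adjusted p, as did 0% of all genes, and 0 of 6 had an unadjusted p under 0.05, as did 1.14% of all genes. With labelled sex as a covariate the difference was −0.14. Only the uninjected library with 15.7 FPKM of Hmox1 is labelled male, as all treated libraries are. That value thus sets treated colon against this library alone and does not show an effect adjusted for sex. The labels and Ddx3y also disagree in these libraries.

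Hmox1 did not pass the test in the other ileum comparisons either. Hmox1 was at 2.45, 4.38 and 2.10 FPKM in uninjected ileum and at 2.26, 1.78, 3.05 and 2.09 FPKM in KO ileum, with overlap (log2 difference 0.28, SE 0.304, adjusted p = 0.706, limma). In treated against uninjected ileum it was at 6.87, 3.43 and 7.80 FPKM in treated libraries and at 2.37, 4.23 and 2.06 FPKM in uninjected ones, again with overlap (log2 0.93, SE 0.452, adjusted p = 1.00, limma). Ileum uninjected 3, the high one of its group, has a GC slope of 1.02 in the table with KO. No gene of the list was called in these ileum comparisons. For uninjected against KO ileum that was 0 of 6 tested, beside 0.00846% of all genes (0 of 6 and 5.42% at an unadjusted p under 0.05). For treated against uninjected ileum it was 0 of 7, beside 0% of all genes (0 of 7 and 0.821% at an unadjusted p under 0.05).

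**Figure D2:**
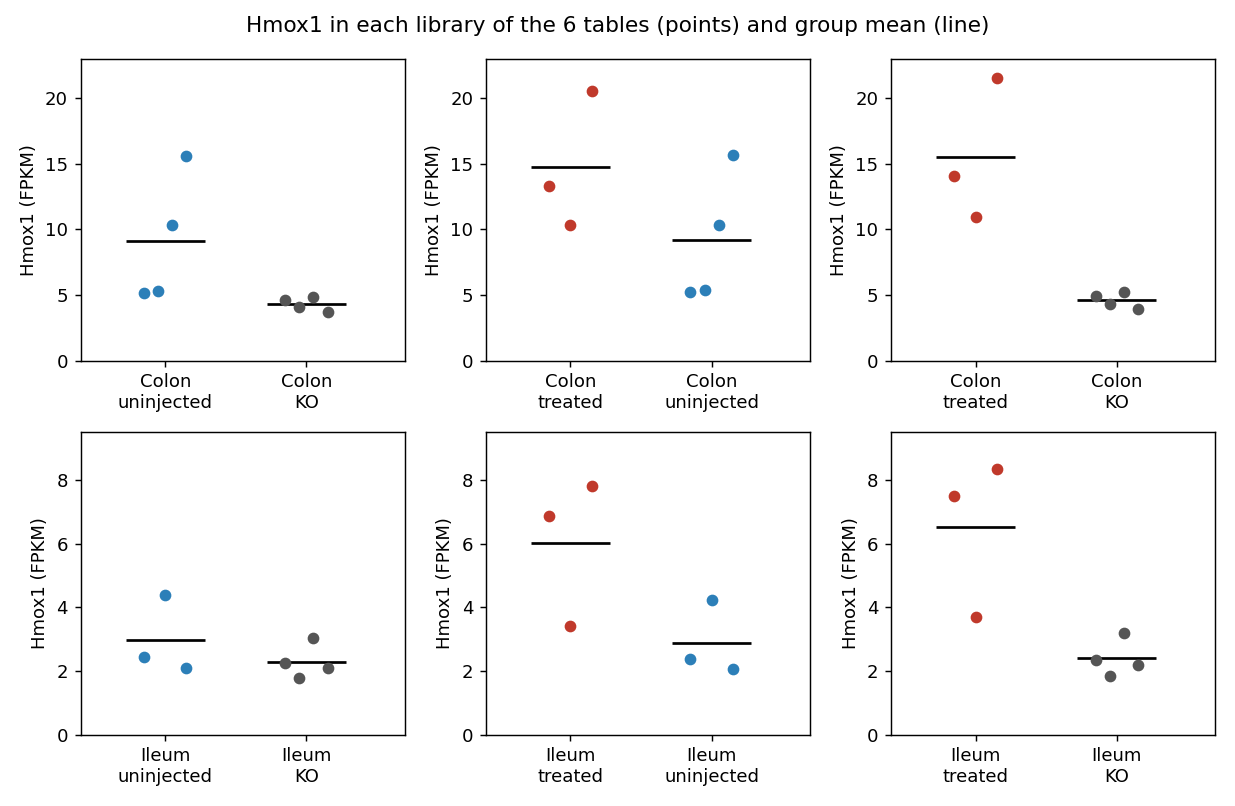
Hmox1 in FPKM in each library (points) of the 6 tables, which were scaled separately, with the group mean as a line; treated mice in red, uninjected in blue and KO in grey. Treated colon (10.9 to 21.5 FPKM), treated ileum (3.70 to 8.33 FPKM) and uninjected colon (5.19 to 15.6 FPKM) lie above the KO libraries of their tables. Uninjected colon is split into a low pair, close to KO, and a high pair.

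Macrophages are a known site of haem oxygenase, and their markers were higher with Hmox1 in treated against KO colon, but not within uninjected colon. The 10 markers found, Lyz2, C1qa, C1qb, C1qc, Cd14, Csf1r, Itgam, Mrc1, Cd163 and Emr1, summed to 484, 537 and 401 FPKM in treated colon, against 275, 308, 265 and 278 FPKM in KO colon. The sums did not overlap, 9 of 10 markers had the higher mean in treated colon and 6 of them did so without overlap, while 0 of 10 passed the test; over all genes 4.16% were higher without overlap and 0.296% called. Other cell types moved in that comparison too. Of 10 intestinal epithelium markers 9 had the lower mean in treated colon, with sums of 6370 to 10610 FPKM in treated and 9204 to 12050 FPKM in KO libraries, and 8 of 9 lymphocyte markers had the higher mean, with sums of 38.9 to 99.3 FPKM in treated and 28.8 to 53.1 FPKM in KO libraries. Of 10 markers of dividing cells 9 had the higher mean in treated colon, with sums of 254 to 519 FPKM in treated and 256 to 311 FPKM in KO libraries. The same held for 5 of 10 muscle and stroma markers and for 0 of 6 erythroid ones. The sums of each of these cell types overlapped, and none of these markers passed the test. Cd68 and Adgre1 have no row under those symbols, and Emr1, the older name of Adgre1, was at 0 in some libraries. In bulk RNA, fewer or more cells of a type and less or more RNA per cell cannot be told apart. Per 100 FPKM of these markers, Hmox1 was at 2.90, 2.04 and 5.37 FPKM in treated colon and at 1.78, 1.40, 1.96 and 1.43 in KO colon. In ileum, where the marker sums overlapped (311 to 667 FPKM in treated and 287 to 401 FPKM in KO), the same ratio was 1.13, 0.987 and 2.68 in treated and 0.586, 0.646, 0.867 and 0.571 in KO libraries. Both ratios thus stayed above those of the KO libraries in every treated library, a calculation made after the values were seen and given without a test. In uninjected colon the highest marker sum, 555 FPKM in Colon uninjected 2, went with 5.35 FPKM of Hmox1. Colon uninjected 3 and 4, with 10.3 and 15.6 FPKM of Hmox1, had sums of 252 and 260 FPKM, within the 247 to 291 FPKM of KO colon in that table. The ratio there ran from 0.963 to 5.99. The part of these cell types in the Hmox1 levels was not tested beyond these values.

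Transferrin receptor, the uptake route for transferrin iron, was lower on average in both transgenic colon groups than in KO colon, without passing the test. In the table of uninjected and KO colon Tfrc had 15.4, 11.9, 32.7 and 75.0 FPKM in uninjected libraries, against 54.0, 44.2, 64.9 and 61.1 FPKM in KO libraries. Of the uninjected libraries 3 were below all KO libraries and Colon uninjected 4 was above them all (log2 difference −1.08, SE 0.502, adjusted p = 0.721, limma). With library weights the log2 difference was −1.74 and passed, at an adjusted p of 0.0390 (limma). Leaving out single libraries gave adjusted p-values from 0.0638 to 0.983 (limma). With the GC and length trend of each library removed the log2 difference was −0.64 (adjusted p = 0.739, limma). With labelled sex as a covariate it turned to 0.43, but Colon uninjected 4 is the only uninjected colon library labelled male. That value thus sets this 1 library against KO colon. In the table of treated and KO colon Tfrc had 23.6, 27.8 and 66.6 FPKM in treated libraries and 57.3, 46.8, 69.5 and 64.9 FPKM in KO libraries, a log2 difference of −0.74 (SE 0.347, adjusted p = 0.705, limma). Colon treated 4 lay within the KO range and the other treated libraries below it. In ileum the groups overlapped in each comparison, with log2 differences of −0.26 for treated minus KO, −0.07 for treated minus uninjected and −0.19 for uninjected minus KO.

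Cybrd1 was too low to be tested in colon. It had 0.813, 0.699 and 0.745 FPKM in treated colon, against 0.566, 0.685, 0.781 and 0.883 FPKM in KO colon (two-sided exact permutation p = 0.857 for the mean, with 0.0571 the smallest that this design allows). In uninjected colon it had 0.803, 0.436, 0.416 and 0.615 FPKM, against 0.535, 0.646, 0.728 and 0.830 FPKM in KO colon (exact permutation p = 0.314, smallest possible 0.0286). These levels rest on 19 to 142 recovered reads per colon library, and the groups overlapped. In ileum Cybrd1 reached 0.949, 1.58 and 1.57 FPKM in treated libraries, against 1.11, 0.921, 0.895 and 1.56 FPKM in KO libraries (log2 0.20, SE 0.288, adjusted p = 0.939, limma). Treated and KO ileum overlapped, as did treated and uninjected ileum (log2 0.50, adjusted p = 1.00, limma). In uninjected against KO ileum it was again under the minimum, with 0.577, 0.468 and 1.38 FPKM in uninjected and 1.07, 0.886, 0.851 and 1.48 in KO libraries (exact permutation p = 0.457, smallest possible 0.0571).

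The exporter Slc40a1 spread widely within the transgenic groups. In colon it had 92.9, 44.5 and 122 FPKM in treated libraries, against 60.0, 59.4, 44.9 and 76.3 FPKM in KO libraries (log2 0.43, SE 0.344, adjusted p = 0.816, limma). Colon treated 2 was the lowest of these 7 libraries and the other treated ones the highest. Uninjected colon held 30.4, 27.8, 38.5 and 99.3 FPKM, against 56.6, 56.1, 41.9 and 71.8 FPKM in KO (log2 −0.39, SE 0.387, adjusted p = 0.748, limma), with 1 uninjected library above and 3 below the KO range. In ileum the treated libraries had 9.39, 14.6 and 58.6 FPKM and the KO libraries 18.5, 11.7, 10.1 and 19.9 FPKM (log2 0.47, SE 0.562, adjusted p = 0.939, limma). Treated ileum thus spanned the KO range on both sides.

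Hephaestin, the multicopper ferroxidase beside the exporter, had 34.0, 18.7 and 47.1 FPKM in treated colon, against 37.8, 34.7, 32.1 and 40.3 FPKM in KO colon (log2 −0.21, SE 0.290, adjusted p = 0.875, limma). Colon treated 2 was below the narrow KO range, Colon treated 4 above it and Colon treated 1 within it. Uninjected colon held 13.8, 20.2, 16.7 and 47.4 FPKM, against 35.7, 32.8, 29.9 and 37.9 FPKM in KO, so 3 uninjected libraries were below and 1 above (log2 −0.63, SE 0.347, adjusted p = 0.721, limma). In ileum Heph stood at 13.7, 56.4 and 76.3 FPKM in treated libraries, against 58.8, 73.7, 42.8 and 58.7 FPKM in KO (log2 −0.55, SE 0.526, adjusted p = 0.939, limma). Ileum treated 1 was the low one, and Ileum uninjected 3 was as low, at 8.45 FPKM in its table with KO.

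Set against each other within a library, exporter and ferroxidase varied less than either gene did alone in the treated and uninjected groups. The ratio of Slc40a1 to Heph was 2.73, 2.38 and 2.59 in treated colon, 2.20, 1.37, 2.31 and 2.10 in uninjected colon and 1.59, 1.71, 1.40 and 1.90 in KO colon. All 3 treated libraries were above all KO and all uninjected libraries of the colon. In ileum the ratio was 0.685, 0.259 and 0.767 in treated, 0.589, 0.666 and 0.516 in uninjected and 0.315, 0.159, 0.236 and 0.339 in KO libraries. There the uninjected libraries were all above the KO libraries, and of the treated ones 2 were. The ratio is 1 of 5 formed after the values were seen and is given without a test.

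**Figure D3:**
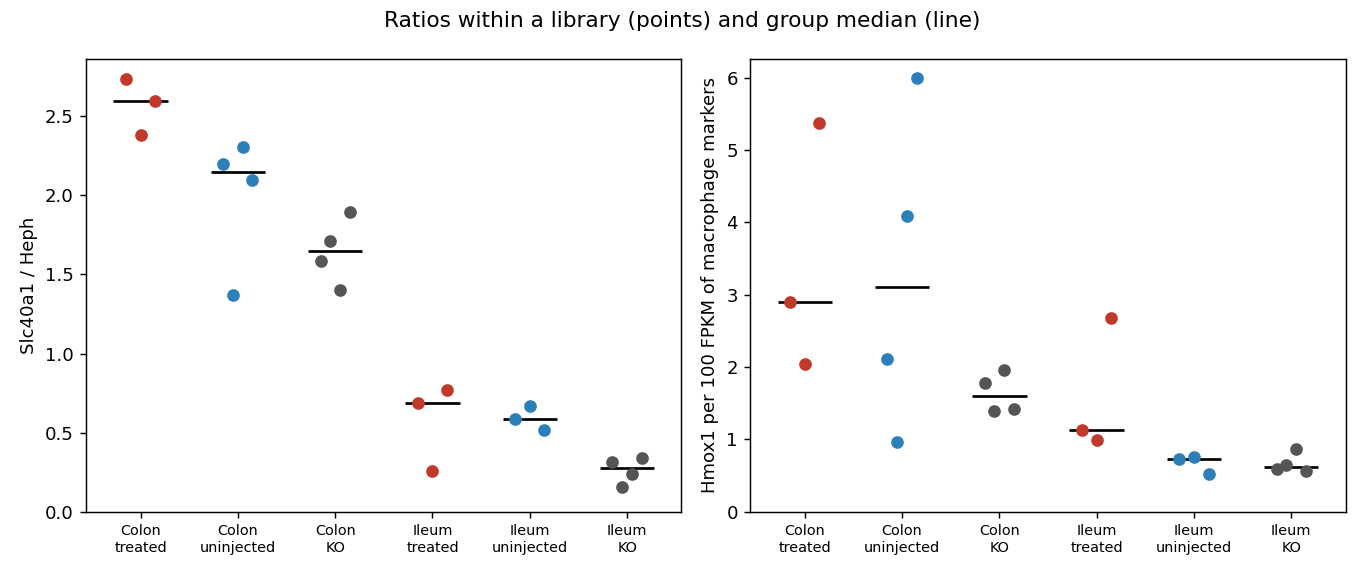
Left, the ratio of Slc40a1 to Heph within each library, and right, Hmox1 in FPKM per 100 FPKM of 10 macrophage markers; points are libraries, lines group medians. The ratio is 2.38 to 2.73 in treated colon against 1.40 to 1.90 in KO colon, and 0.516 to 0.666 in uninjected ileum against 0.159 to 0.339 in KO ileum.

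The ferritin chains, by far the most abundant mRNAs of the list, differed little between groups in colon. Fth1 had 5201, 3179 and 3575 FPKM in treated libraries, against 4374, 3394, 5625 and 2588 FPKM in KO libraries (log2 0.02, SE 0.338, adjusted p = 0.990, limma). Ftl1 had 2930, 3041 and 1568 FPKM in treated libraries, against 2808, 2611, 3456 and 1723 FPKM in KO libraries (log2 −0.09, SE 0.344, adjusted p = 0.961, limma). Both groups of each chain overlapped over most of their range. In uninjected colon Ftl1 had 5079, 3239, 2888 and 1896 FPKM, against 2650, 2464, 3224 and 1620 FPKM in KO, with a log2 difference of 0.35 (SE 0.364, adjusted p = 0.754, limma). Uninjected minus KO for Fth1 was 0.07 (SE 0.342), where Colon uninjected 1 was highest with 5747 FPKM.

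In ileum single libraries stood far from the rest of their group. Ftl1 had 3343, 1465 and 998 FPKM in treated libraries, against 1633, 1725, 2084 and 1065 FPKM in KO libraries (log2 0.10, SE 0.440, adjusted p = 0.972, limma). Ileum treated 1 was above and Ileum treated 4 below the KO range. In uninjected ileum Ftl1 had 1907, 4853 and 1266 FPKM, against 1568, 1658, 1983 and 1010 FPKM in KO (log2 0.59, SE 0.496, adjusted p = 0.669, limma). Here Ileum uninjected 3 was far above all others, and Fth1 in that library was at 4261 FPKM, against 1458 to 2967 FPKM in KO. The test needs differences larger than such spreads: SEs of the ferritin log2 differences in ileum ran from 0.339 to 0.655.

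**Figure D4:**
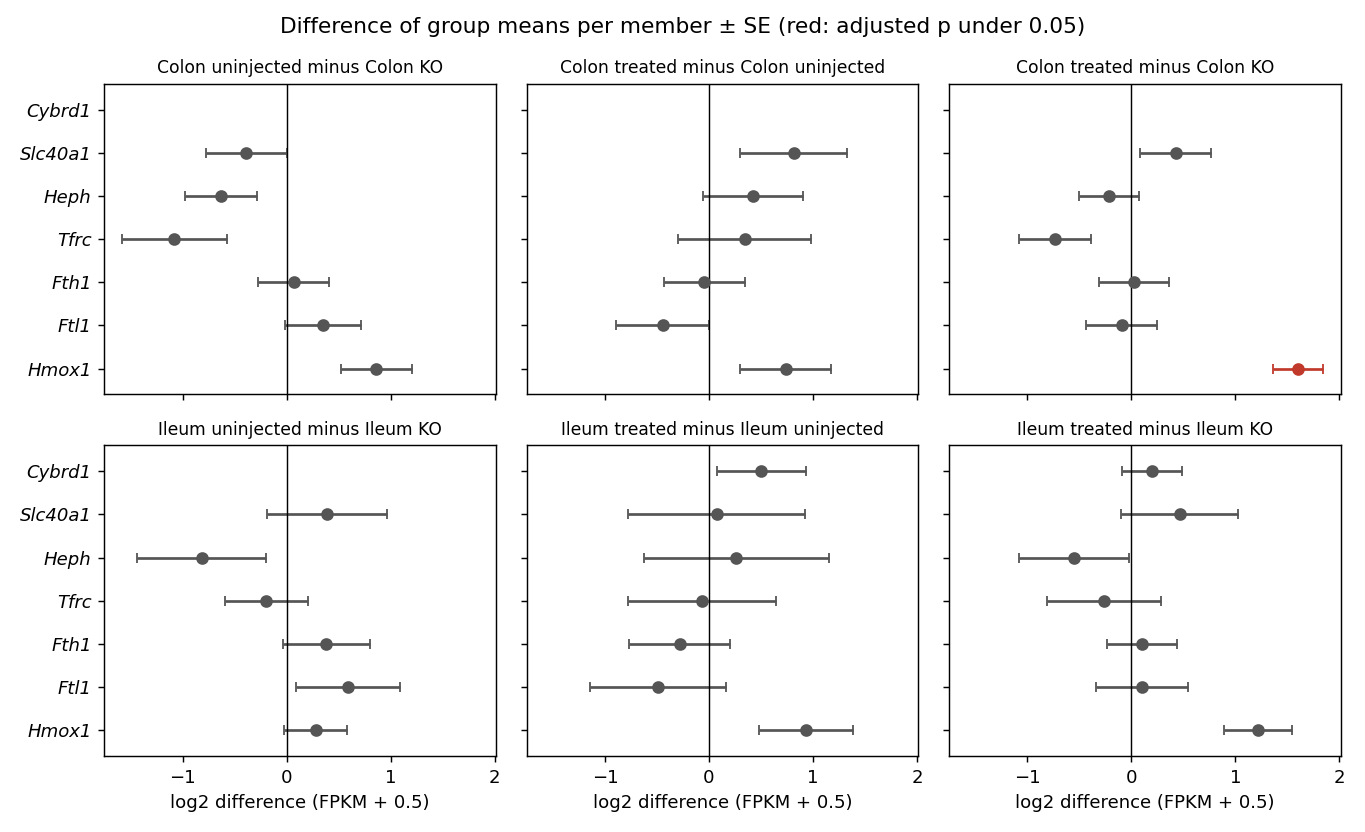
log2 difference of group means (FPKM + 0.5) of each gene tested, with its SE, in the 6 comparisons; red marks an adjusted p under 0.05. Hmox1 in treated minus KO colon, at 1.60, is the 1 red point, and error bars of Slc40a1, Heph and Tfrc are wide.

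Ftl1 tended to be high in libraries where Tfrc was low. The ratio of Ftl1 to Tfrc within a library ran from 22.8 in Ileum treated 4 to 469 in Ileum treated 1, both of 1 group. In colon it was 124, 110 and 23.6 in treated, 330, 273, 88.3 and 25.3 in uninjected and 49.0, 55.8, 49.7 and 26.5 in KO libraries. In ileum it was 469, 49.3 and 22.8 in treated, 94.4, 397 and 33.0 in uninjected and 86.2, 60.6, 96.3 and 29.6 in KO libraries. Replicates of 1 group thus differed widely. The libraries also differed in a property of the whole library. Over all genes, log2 deviations from the mean of the table climbed with GC content by 1.10 per 10% GC in Ileum treated 1. The slope was 1.02 in Ileum uninjected 3 and 0.80 in Colon uninjected 1, and these libraries had the highest ratios. In Ileum treated 4 and Colon treated 4 the slope was −0.41 and −0.43 in the tables with KO. Between these ends the order was not the same throughout. Ileum KO 3, with a slope of −0.24, had a higher ratio than Ileum uninjected 1, with a slope of 0.07 in the same table. The part of GC content in the ratio was not tested. Transcripts of the list span that scale, from Tfrc at 39.8% GC over 4890 bases, Slc40a1 at 43.7%, Heph at 45.8% and Cybrd1 at 47.4%, to Fth1 at 52.3%, Hmox1 at 53.4% and Ftl1 at 58.1% over 968 bases, while the median gene tested had 50.7%. With the GC and length trend removed from each library, 9 of 38 differences of the list turned their sign, all of them uncalled. The Hmox1 difference in treated minus KO colon was then 1.59 (log2, adjusted p = 0.0539).

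**Figure D5:**
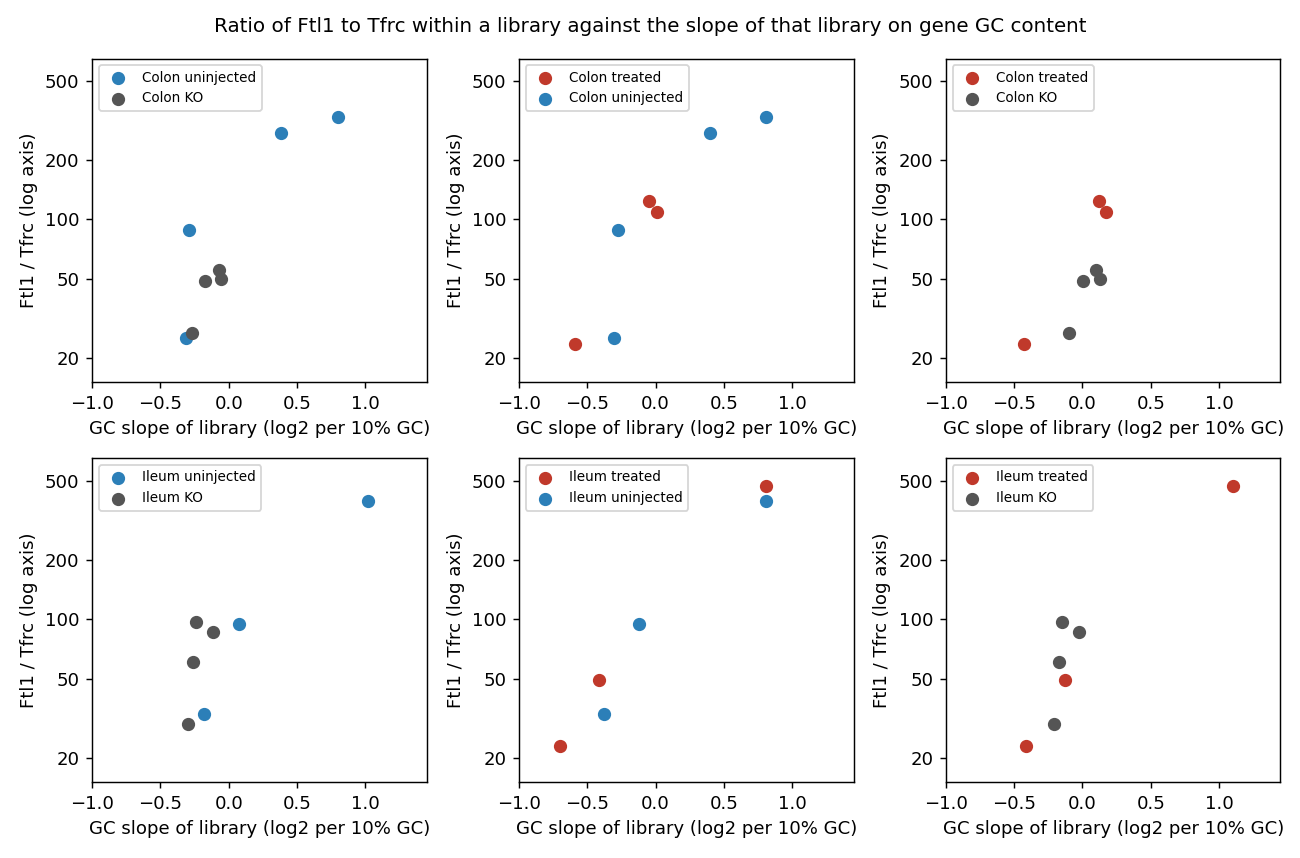
Ratio of Ftl1 to Tfrc within a library (log axis) against the slope of that library on gene GC content (log2 per 10% GC, relative to the mean of its table), 1 panel per table; colours mark groups. Libraries with slopes of 0.80 or more have ratios of 330 to 469, and those with slopes of −0.41 or less ratios of 49.3 or less.

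The patterns most like those of each gene were found by the smaller of Pearson's r over 11 colon and 10 ileum libraries, among 11530 genes, as a description. Heph went with Itch (0.983) and Ppm1b (0.983), Ftl1 with Fahd2a (0.973) and 2400001E08Rik (0.968), and Fth1 with Gstp2 (0.928) and Gp1bb (0.897). Tfrc went with Rc3h1 (0.920) and 4932438A13Rik (0.918), and Slc40a1 with Dock1 (0.894) and Slc6a14 (0.891). Hmox1 had looser company in Gars (0.785) and Ifitm6 (0.769), as had Cybrd1 in Sh3rf2 (0.778) and Tubgcp4 (0.704). The libraries differ in GC slope, as given above, and the part of that in these values was not tested.

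Around the 7 genes, 74 of 79 other iron genes in 7 lists were found, and Hp was the 1 that passed the test. Hp encodes haptoglobin, which binds free haemoglobin, and it averaged 124.7 ± 52.3 FPKM in treated colon and 7.90 ± 4.35 FPKM in KO colon (SD, n = 3 and n = 4; log2 4.01, SE 0.493, adjusted p = 0.0180, limma). The treated libraries held 82.3 to 183 FPKM and the KO libraries 2.64 to 12.3 FPKM. Its adjusted p was 0.0755 without Colon KO 2, 0.0708 without Colon treated 1, 0.0542 without Colon treated 4 and 0.172 without both Colon KO 2 and Colon treated 4. In treated against KO ileum Hp averaged 113 ± 72.1 FPKM in treated and 9.45 ± 5.92 FPKM in KO libraries (log2 3.73, adjusted p = 0.304, limma). Lcn2, the siderophore-binding lipocalin, averaged 36.8 ± 34.0 FPKM in treated ileum and 2.27 ± 0.190 FPKM in KO ileum (log2 3.26, adjusted p = 0.195, limma), without overlap. In colon Lcn2 was at 4.77 to 80.4 FPKM in treated and at 1.95 to 3.86 FPKM in KO libraries (adjusted p = 0.496, limma). These scavengers of haem, haemoglobin and siderophores had a median log2 difference of 0.89 over 6 tested in treated minus KO colon and of 1.25 over 5 in ileum, beside −0.01 and 0.00 over all genes.

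The other lists held no call in treated against KO mice. For uptake and reduction, 6 of 9 genes were higher in treated colon (median log2 0.07) and 9 of 9 in treated ileum (median 0.42), with 0 called. Steap4, a metalloreductase, averaged 7.35 ± 6.02 FPKM in treated colon and 1.97 ± 0.404 in KO colon (adjusted p = 0.594, limma), and Slc46a1, a folate carrier that also moves haem, 6.87 ± 3.45 in treated and 12.1 ± 2.25 in KO colon (adjusted p = 0.590). Bmp6, a ligand that induces hepcidin in liver, was at 1.46 to 1.56 FPKM in treated colon, below the 2.22 to 2.94 FPKM of KO colon (log2 −0.64, adjusted p = 0.421, limma). Cp, the circulating ferroxidase ceruloplasmin, was at 1.66 to 4.74 FPKM in treated and at 1.08 to 1.36 FPKM in KO colon (log2 0.86, adjusted p = 0.590, limma). The 8 enzymes tested that Nrf2, an activator of Hmox1, also drives were split, 4 higher and 4 lower in treated colon, with a median log2 difference of −0.02. Among 13 iron-responsive and oxygen-responsive regulators 7 were higher and 6 lower there (median 0.05), and among 15 genes of mitochondrial iron and haem synthesis 7 were higher and 8 lower (median −0.06). The transferrin cycle had 3 of 7 higher and 4 lower (median −0.04), and ferroxidases, ferritin handling and haem export 5 of 8 higher and 3 lower (median 0.05).

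In all, 1 of 66 other iron genes tested was called in treated minus KO colon and 9 had an unadjusted p under 0.05, against 0.296% and 7.31% of all genes. In treated minus KO ileum the counts were 0 and 6 of 62, beside 0.0835% and 3.65% of all genes. Treated minus uninjected gave 0 and 3 of 64 in colon, beside 0% and 1.14% of all genes, and 0 and 3 of 63 in ileum, beside 0% and 0.821%. Uninjected minus KO gave 0 and 3 of 65 in colon, beside 0.0804% and 4.60% of all genes, and 0 and 3 of 61 in ileum, beside 0.00846% and 5.42%. Comparisons that share a group share its libraries, so their values are given side by side only. The differences of effect between ileum and colon called 0 of 6 genes of the list for uninjected minus KO, beside 0.00809% of all genes, and 0 of 6 for treated minus uninjected, beside 0% (limma). No gene of the list had an unadjusted p under 0.05 for a difference between tissues.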

How the data were processed

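The members and gene lists were chosen with earlier results of these data known. FPKM values per gene in 6 tables were deposited by the authors, each table holding 2 groups of 1 tissue. Per the labels' protocols, poly(A) RNA was sequenced and mapped with CLC Genomics Workbench, and the submitters' processing notes name kallisto 0.45.0, DESeq 1.14.0, DESeq2 and the build mm9 without their roles. What annotation served upstream is not given in the sources used here. Each library differed between tables by 1 constant factor, so groups were compared only within a table. For levels over a tissue, treated libraries were rescaled by the median factor of the KO libraries. Those factors ran from 0.933 to 0.944 in colon and from 0.948 to 0.961 in ileum, so the rescaled levels are approximate. For each comparison, log2(FPKM + 0.5) was fitted, for all genes averaging 1 FPKM or more, with limma 3.58.1 (R 4.3.3) with an intensity trend, two-sided, Benjamini-Hochberg adjusted over all genes tested, threshold 0.05. A fold change on this scale understates changes of low genes. The difference between tissues was the ileum effect minus the colon effect in 1 fit. That fit took colon and ileum libraries as independent, and the labels do not say whether both tissues came from the same mice. Genes under the minimum got an exact two-sided permutation test (scipy 1.17.1). Low FPKM values were whole multiples of a step, within 0.01, for 81.3% to 81.6% of genes above 0, which gave recovered reads; depth is the sum over those genes, and Heph was not among them. Columns of treated and of uninjected ileum libraries carry a number that names the group's library but not its sample. The design text counts 3 uninjected and 4 treated colon samples, and the labels, with 4 and 3, were followed. GC content and length are those of the longest coding transcript in the mm9 annotation, for 96.9% or more of genes tested. Named genes are the 7 members, other iron genes that passed, up to 2 more per list and comparison with the smallest p, and the 2 most similar patterns per member. The fits were also run on simulated libraries with planted changes larger than any seen in the list, which does not measure power for differences of the size seen here. Alternatives were other pseudocounts (0.1 and 1), no minimum, quantile normalization, no trend, library weights, single libraries left out, the replicate block, labelled sex, and, chosen after seeing the data, removal of the GC and length trend, of 3 acinar libraries or of 3 libraries with the steepest GC trend, and voom on recovered reads.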

Additional observations from a re-analysis of the deposited data

Results flagged for a closer look

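In groups of 4, a library standing apart from the other 3 was found by Dixon's 95% criterion in 2 of 21 tests, where chance alone flags about 1 in 20. Slc40a1 was at 99.3 FPKM in Colon uninjected 4, against 27.8 to 38.5 FPKM in the other uninjected colon libraries. Fth1 was at 5747 FPKM in Colon uninjected 1, against 3157 to 3371 FPKM in the others. Colon uninjected 4 is also the deepest colon library, with 31.7 M recovered reads, and Colon uninjected 1 has the steepest GC slope of the colon. No gene of the list moved in opposite directions without overlap in the 2 tissues.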

How the results depend on the processing

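For Hmox1 in treated minus KO colon the log2 difference stayed between 1.32 and 1.82, but the call was lost, leaving 0 instead of 1 gene of the list called, with no minimum (log2 1.60, adjusted p = 0.0904), quantile normalization (1.60, 0.0504), no intensity trend (1.60, 0.0528), without Colon KO 2, which holds acinar transcripts (1.58, 0.174; without Colon treated 4 as well, 1.32, 0.192), with the GC and length trend removed (1.59, 0.0539) and with voom on recovered reads (1.75, 0.0596), all from limma. Leaving out 1 library gave 1.35 to 1.82, with 0 to 1 genes called; the call was kept without Colon treated 2 (adjusted p = 0.0265) or Colon treated 4 (0.0450) and lost without Colon treated 1 (0.107) or any single KO library (0.115 to 0.174). Library weights, estimated gene by gene because the default did not converge in every fit, called 1 gene (Tfrc) instead of 0 in uninjected minus KO colon. Among the 378 differences of the list within a tissue under other settings, 46 turned their sign, and of 262 with 1 library left out, 32 did. None of these was called. Labelled sex as a covariate gave 11 of the 46, out of 12 differences fitted with it. In those fits Colon uninjected 4 alone stands for uninjected colon, so they do not show that the differences depend on sex. Counts over all genes moved more: over these settings uninjected minus KO colon called 1 to 1007 genes (10 in the main fit; 2 to 68 with 1 library left out), treated minus KO colon 14 to 63 (37; 17 to 49), treated minus KO ileum 1 to 219 (10; 3 to 14) and the difference between tissues for treated minus KO 0 to 34 (1; 1 to 5), and the other 5 fits 0 to 7 (0 or 1). Library weights gave the 1007, the 219 and the 34. The cause was not tested. The replicate numbers were not taken to pair the samples. Deviations of same-numbered uninjected and KO colon libraries correlated at 0.004, −0.003, −0.006 and 0.671. These values cannot settle whether the numbers pair samples, because trends of a whole library, such as its GC slope, enter them. With the replicate block 3 genes were called there and 0 of the list. No paired analysis was possible for the other comparisons because the treated and uninjected ileum columns are not tied to numbered samples. Depth limits Cybrd1 most, with as few as 19 reads.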
